A study of Mus musculus with 8 samples.

Results

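Immediate early genes are switched on within minutes of a growth factor, stretch, wounding or stress signal, without new protein synthesis, and their transcripts are short-lived. Most encode transcription factors. FOS and JUN family proteins pair to form AP-1, EGR proteins bind GC-rich promoters, and DUSP1 dephosphorylates the MAP kinases that start the response. The same genes are known to respond to tissue digestion and cell sorting, so their level in dissociated cells can hold a part that arose after dissection. Their levels in embryonic forelimb cells were examined for 10 genes chosen by symbol: *Fos*, *Fosb*, *Jun*, *Junb*, *Jund*, *Egr1*, *Egr4*, *Atf3*, *Ier2* and *Dusp1*. All 10 were found among 28001 features, and all had counts in each of the 8 libraries.

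The data were single-cell transcript counts (unique molecular identifiers, UMIs) from C57BL/6J mouse forelimbs. Embryos carried *Hic1* CreERT2/CreERT2, in which a tamoxifen-activated Cre is driven from the *Hic1* locus, and *Rosa26* LSL tdTomato/tdTomato, a reporter that Cre switches on for good, so that cells with active *Hic1* at the time of tamoxifen and their descendants are tdTomato+. Tamoxifen was given to the dams at E10, and limbs of several embryos were pooled. Single libraries of sorted tdTomato+ cells were made daily from E11.5 to E14.5 and, at E16.5, from a proximal segment (distal stylopod, elbow and proximal zeugopod) and a distal segment (distal zeugopod and autopod), and 2 replicate libraries held whole E11.5 forelimb, labelled as containing tdTomato+ and tdTomato- cells of the same alleles. All cells were digested warm, stained and sorted away from blood and endothelial cells. The enzyme changed from Dispase II to a collagenase and Pronase mixture between E12.5 and E13.5, and the kit chemistry changed between E13.5 and E14.5, so at those steps stage, enzyme and kit cannot be told apart.

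Of 57469 barcodes, 53085 held at least 3000 UMIs with at most 10% mitochondrial UMIs and were kept, between 3165 and 11109 per library, with 31500092 to 234893903 UMIs per library. Levels are given as CPM, the UMIs of a gene scaled to a common library total, over all kept cells of a library, and intervals are exact 95% Poisson intervals that cover counting error only. Since UMIs were counted at transcript ends, levels were compared between samples and not between genes. *tdTomato* lay between 427 and 1341 CPM in the sorted libraries and at 3.88 and 4.21 CPM in whole limb, and *Prrx1*, a limb mesenchyme gene, at 201 CPM or more in every library. *Ptprc*, which marks blood cells, was at 0.117 CPM or less. Epithelial-like cells made up 8.48% of the E16.5 proximal library and 0.835% or less of each of the others. Any pair of libraries shared at most 48 barcodes. Each sorted condition was 1 library, so differences between them have no replicate test. The only measure of spread is the whole-limb pair, whose 10 members differed by a median of 0.10 and at most 0.34 (*Jun*) on the log2(CPM + 1) scale. Of 7998 genes, 0.100% lay past 2-fold between those replicates, in either direction, and 0 of 10 members did.

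Promoter sequence was compared first, because a cyclic AMP response element (core TGACGT), bound by CREB and ATF proteins, is a textbook entry point for these genes. Windows from 250 bases before to 50 after the start were taken from RefSeq (GRCm38.p6). They were matched for 8 of 10 members, all but *Egr1* and *Ier2*, and all 8 were searched. The RefSeq start lay 0 to 30 bases from a transcript start of the GENCODE vM21 annotation in 7 of them and 1210 bases from it in *Jund*. TGACGT stood on one strand or the other in 4 of 8 (*Fos*, *Egr4*, *Atf3* and *Dusp1*), against 7.51% of 32851 windows of the same length. These 4 windows are given as the 150 bases before the start, read 5′ to 3′ on the gene's strand. Capitals mark TGACGT (written ACGTCA where it lies on the other strand), its palindrome TGACGTCA, and the TATAAA box.
Fos: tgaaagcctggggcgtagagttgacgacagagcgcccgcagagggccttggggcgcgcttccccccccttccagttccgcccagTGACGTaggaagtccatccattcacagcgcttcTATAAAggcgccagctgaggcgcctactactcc
Egr4: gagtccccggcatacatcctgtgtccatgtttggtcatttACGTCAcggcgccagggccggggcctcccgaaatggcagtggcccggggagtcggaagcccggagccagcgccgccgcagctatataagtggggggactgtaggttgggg
Atf3: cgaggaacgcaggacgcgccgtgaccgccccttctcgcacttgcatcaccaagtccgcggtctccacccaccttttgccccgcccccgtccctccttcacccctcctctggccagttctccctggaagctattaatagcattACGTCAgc
Dusp1: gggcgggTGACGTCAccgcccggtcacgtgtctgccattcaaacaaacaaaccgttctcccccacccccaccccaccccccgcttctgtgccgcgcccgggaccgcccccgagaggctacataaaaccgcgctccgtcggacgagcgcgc
The *Fos* window lies at chr12:85473740-85473889 on the plus strand, directly before the gene (12:85473890-85477273, 4 exons in its first annotated transcript). Its core stands at bases -66 to -61 and its TATAAA at -33 to -28. The windows of *Egr4* (chr6:85513590-85513739), *Atf3* (chr1:191183334-191183483) and *Dusp1* (chr17:26508473-26508622) lie on the minus strand, and since *Atf3* and *Dusp1* also have transcripts that start further upstream, their windows fall inside the annotated genes. The core stands at -110 to -105 in *Egr4* and at -8 to -3 in *Atf3*. *Dusp1* holds the palindrome at -143 to -136, which carries the core on both strands and which 1.79% of all windows hold. Each of *Egr4* (-178 to -173) and *Dusp1* (-191 to -186) has another core before the printed bases. The AP-1 motif TGANTCA was in 0 of 8 member windows and 7.81% of all windows, TATAAA in 2 of 8 (*Fos* and *Junb*) and 13.6%, and the EGR motif GCGNGGGCG in 1 of 8 (*Fosb*) and 5.55%. The CArG box, known as the site of SRF, was in 0 of 8 and 1.63% of all windows, and CCAAT in 3 of 8 (*Jun*, *Junb* and *Atf3*) and 37.4%. Sites further than 250 bases upstream, and any of *Egr1* and *Ier2*, were outside the search. A match describes the letters in the window and is no measure of binding. The 4 genes that share the core did not share a course over the libraries, as their levels show.

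The AP-1 partners of the FOS family came first. *Fos*, whose protein pairs with JUN proteins, stood at 325, 574, 333 and 209 CPM in the libraries from E11.5 to E14.5, at 173 CPM in the proximal and 399 in the distal segment of E16.5, and at 249 and 264 in the whole-limb replicates. *Fos* was thus highest at E12.5 and lowest in the E16.5 proximal library. *Fosb*, its close relative, stood at 28.4, 55.0, 101, 81.2, 139.8 and 272 CPM in the same order of sorted libraries, and at 15.4 and 17.3 in whole limb. *Fosb* took another course, with its 4 highest values at E13.5 or later. After every cell was thinned to 3000 UMIs, 8.18% of cells held a *Fosb* UMI at E11.5 and 39.8% in E16.5 distal limb. For *Fos* the thinned shares lay between 24.2% (E16.5 proximal) and 64.4% (E12.5), and the unthinned ones between 53.8% (E14.5) and 85.6% (E12.5). No cell type that lacks these genes was at hand to set the level of free RNA, so CPM are given preference over shares.

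The JUN family members also took courses of their own. *Jun*, the classical AP-1 partner of FOS, stood at 586, 399, 666, 399.6, 809 and 664 CPM in the 6 sorted libraries and at 224 and 177 in whole limb. Every sorted library lay above both whole-limb replicates. *Junb*, a weaker activator that can oppose JUN, stood at 195, 195, 75.1, 96.5, 337 and 354 CPM, and at 235 and 225 in whole limb, with its low values at E13.5 and E14.5. *Jund*, known for steady expression in unstimulated cells, had a narrow range, with 767, 889, 734, 918, 1026 and 1382 CPM and 603 and 574 in whole limb.

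The zinc finger factors were both lower in the libraries of E13.5 and E14.5 than in any earlier one. *Egr1*, a target of ERK signalling that also drives tendon genes, stood at 215 and 206 CPM at E11.5 and E12.5, and at 42.4 and 29.8 in the following libraries. At E16.5 it stood at 51.2 proximally and 161 distally. Whole limb held 98.3 and 108, so the distal library lay above both of its replicates. *Egr4* stood at 21.5 (19.9 to 23.1) and 14.8 CPM at E11.5 and E12.5 and at 20.6 and 18.6 in whole limb. From E13.5 on it lay between 0.264 and 0.858 CPM, with 12 UMIs in all at E13.5. For *Egr4* the 4 libraries of E11.5 and E12.5 thus lay above the 4 later ones.

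The other 3 members have different roles. *Atf3*, a stress-induced partner of the JUN proteins, stood at 46.3, 30, 16.3 and 36.0 CPM from E11.5 to E14.5 and at 215 and 192 in the E16.5 proximal and distal libraries, with 53.4 and 49.1 in whole limb. Both E16.5 libraries lay above all others. *Ier2*, a small nuclear protein, was highest at E11.5 (772 CPM, with 504 and 476 in whole limb) and stood at 366, 158, 106, 163 and 149.8 in the 5 sorted libraries after that. *Dusp1*, the feedback phosphatase, kept the narrowest range of the 10, at 95.6, 94.2, 78.8, 50.8, 72.2 and 68.0 CPM and 67.0 and 66.2 in whole limb. The intervals of *Dusp1* at E11.5 (92.2 to 99.1) and E12.5 (91.4 to 97.1) overlapped.

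**Figure D1:**
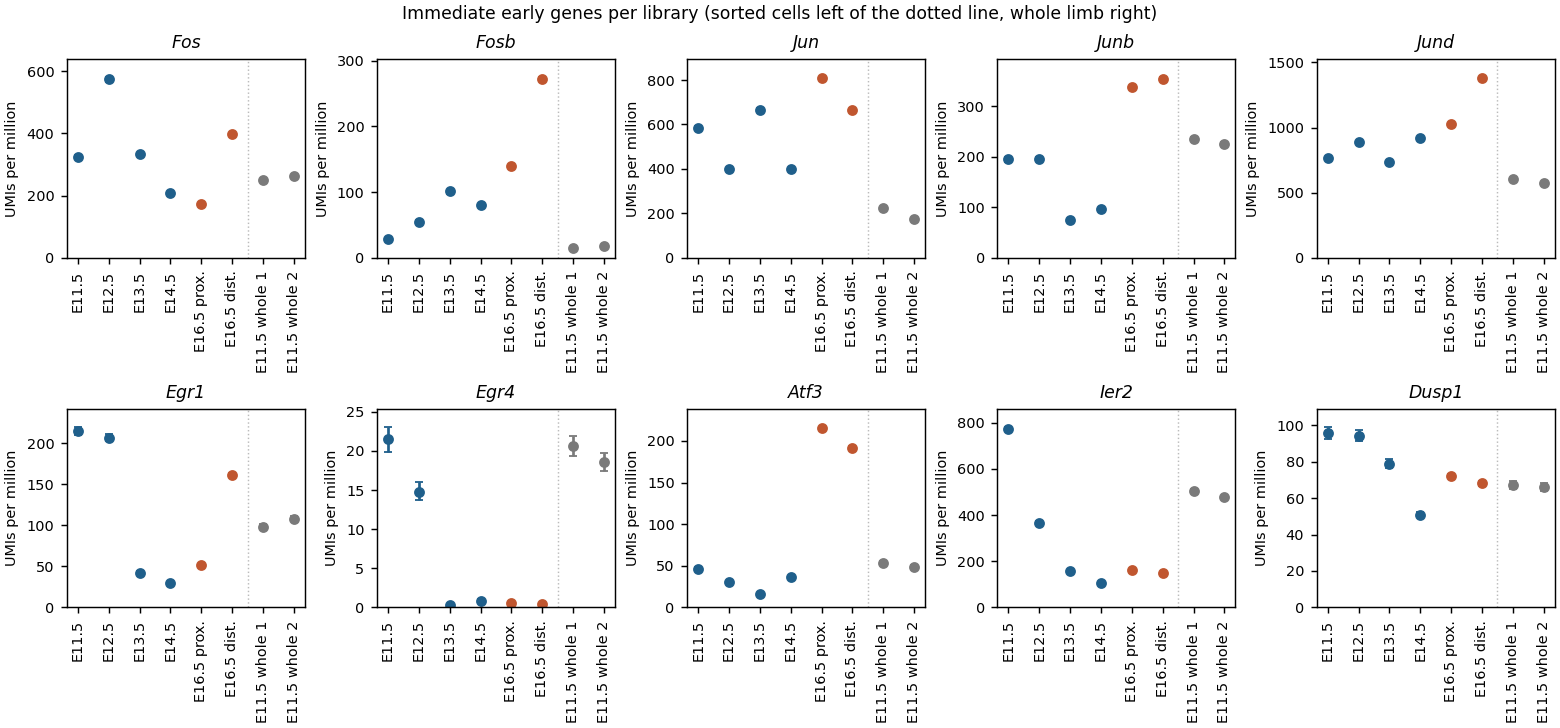
Level of each of the 10 immediate early genes in CPM (vertical axis, from 0) in the 6 sorted libraries, left of the dotted line, and the 2 whole-limb libraries, with exact 95% Poisson intervals where wider than the point. *Egr4* is at 14.8 CPM at E12.5 and 0.264 at E13.5, and *Atf3* is highest in both E16.5 libraries (215 and 192 CPM).

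From E11.5 to E12.5 the members differed in both directions. *Ier2* was 2.11-fold lower (interval 2.07 to 2.15), and past 2-fold in 6 of 7 alternative settings. It was 1 of 10 members past 2-fold lower, where 0.915% of 8740 genes at 10 CPM or more in either library were. *Fosb* was 0.93 and *Fos* 0.82 higher on the log2(CPM + 1) scale, and *Atf3*, *Jun* and *Egr4* were 0.61, 0.55 and 0.50 lower, each past the largest difference between the whole-limb replicates. The median member differed by -0.04 and the median gene by -0.05.

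At the step to E13.5 members of several families were lower. *Egr4* was 56.1-fold lower than at E12.5 as a ratio of CPM (31.9 to 109), on 12 UMIs at E13.5, and 3.65 lower on the log2(CPM + 1) scale. *Egr1* was 4.87-fold lower (4.63 to 5.12), *Junb* 2.59-fold (2.49 to 2.70) and *Ier2* 2.32-fold (2.25 to 2.38), so 4 of 10 members lay past 2-fold lower against 1.68% of 8714 genes. All 4 stayed past 2-fold under each of 7 alternative settings. *Fosb* (1.83-fold) and *Jun* (1.67-fold) were higher. The median member differed by -0.81 and the median gene by -0.05 on the log2(CPM + 1) scale.

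The lower levels were also present inside cell classes that both libraries held in the same clusters. Classes were named from fixed markers after clustering without the members and, apart from the mitotic markers, without the other gene lists used here, so the members did not place a cell in its class. *Egr1* stood at 352 CPM at E12.5 and 40.1 at E13.5 in perichondrial-like cells, at 215 and 42.0 in fibrogenic progenitor-like cells, at 238 and 42.2 in mitotic cells and at 179.5 and 55.6 in early mesenchymal progenitor-like cells. *Egr1*, *Egr4*, *Junb* and *Ier2* were each past 2-fold lower in 4 of 4 classes, and *Fosb* and *Jun* were higher in 4 of 4. Other genes of the pathway also differed. On the list of AP-1 and EGR relatives 5 of 10 genes at 10 CPM or more were past 2-fold lower and 0 higher, among them *Nab2*, a repressor that binds EGR proteins (317 CPM at E12.5, 53.1 at E13.5). Of 11 MAP kinase phosphatases and feedback genes 3 were past 2-fold lower, including *Dusp6*, which acts on ERK (177 and 59.4 CPM). Of 33 other immediate early and delayed early genes 12 were lower and 0 higher, and *Cyr61*, which encodes a matricellular protein, stood at 813 and 375 CPM. Of 12 heat shock genes 1 was higher and 0 lower, and the summed heat shock level was 7299.8 CPM at E12.5 and 7603 at E13.5. The enzyme changed at this step, and its part in the lower levels was not tested.

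Between E13.5 and E14.5 *Atf3* alone was past 2-fold higher (2.21-fold, 2.04 to 2.39), 1 of 9 members at 10 CPM or more against 4.21% of 8813 genes. By class, *Atf3* stood at 17.6 CPM at E13.5 and 34.7 at E14.5 in fibrogenic progenitor-like cells, at 18.3 and 38.8 in mitotic cells and, in the other direction, at 46.5 (20 UMIs in 70 cells) and 28.2 in distal limb mesenchyme-like cells. The first pair of classes lay in different clusters at these stages. *Fos*, *Jun*, *Dusp1* and *Ier2* were 0.67, 0.73, 0.62 and 0.57 lower on the log2(CPM + 1) scale. The median member differed by -0.50 and the median gene by -0.18. The summed members stood at 1928 CPM at E14.5, below every other library, and at 3642 in the E16.5 distal library, above every other. With TMM-scaled CPM the E13.5 library was the lowest (1927, and 1965 at E14.5), and without mitochondrial and ribosomal protein genes whole limb was (2547 and 2446 CPM, and 2567 at E14.5). The kit changed at this step.

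From E14.5 to the E16.5 proximal segment *Atf3* was 5.97-fold higher (5.80 to 6.15), *Junb* 3.49-fold (3.43 to 3.56) and *Jun* 2.03-fold (2.01 to 2.05). These were 3 of 9 members past 2-fold higher, against 6.62% of 8677 genes. *Jun* lay past 2-fold in 5 of 7 alternative settings, and the other pair in 7 of 7. The median member differed by 0.76 and the median gene by -0.19 on the log2(CPM + 1) scale. *Fos* stood at 209 and 173 CPM. Without the epithelial-like cells and other non-mesenchymal cells, *Atf3* was still 2.00 higher on that scale, against 2.55 with them. The size of the step differed by class. In mitotic cells, which lay mostly in the same cluster in both libraries, *Atf3* stood at 38.8 CPM at E14.5 and 120.5 in E16.5 proximal limb, *Junb* at 98.6 and 416 and *Jun* at 349.8 and 861. In epithelial-like cells *Atf3* stood at 100.1 and 623 CPM, *Junb* at 297 and 400.3 and *Jun* at 845 and 966. Dermal fibroblast-like and tenocyte-like cells lay in different clusters at the 2 stages. In the former *Atf3* stood at 45.5 and 84.7 CPM and *Jun* was not higher (492 and 364), and in the latter, of which the E14.5 cluster also expressed cartilage genes, *Atf3* stood at 17.8 and 19.6. *Junb* was higher in each of these 4 classes. The metallothioneins *Mt1* and *Mt2*, which bind metals and respond to stress, stood at 25.9 and 11.1 CPM at E14.5 and at 114 and 33.6 in E16.5 proximal limb. Their part in the difference was not tested. The libraries also differ in the segment dissected.

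The E16.5 segments shared stage, kit and enzyme. *Egr1* was 3.15-fold higher in distal than in proximal cells (3.09 to 3.22) and *Fos* 2.31-fold (2.28 to 2.34), 2 of 9 members past 2-fold higher against 4.15% of 8496 genes. *Fosb* was 1.95-fold (1.92 to 1.97) and *Jund* 1.35-fold higher. *Atf3*, *Ier2*, *Dusp1* and *Junb* differed by -0.17, -0.12, -0.08 and 0.07 on the log2(CPM + 1) scale, less than the largest difference between the whole-limb replicates. *Jun* was 0.28 lower, also within that difference. The median member differed by 0.07 and the median gene by 0.12. *Atf3* turned to 0.33 higher distally once only mesenchymal cells were counted. Epithelial-like cells, 8.48% of the proximal library, held 623 CPM of *Atf3* there. The segments were processed with different Cell Ranger versions, and each is a single library.

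The stress lists did not move as 1 group between the segments. Of 33 other immediate early and delayed early genes 6 were past 2-fold higher in distal cells and 0 lower, and *Nfkbia*, an inhibitor that NF-kB itself induces, stood at 447 CPM distally and 231 proximally. Of 13 heat shock genes 0 were higher and 2 lower, with a sum of 8273 CPM distally and 9492 proximally. *Mt1* stood at 51.6 CPM distally and 114 proximally, and *Mt2* at 15.1 and 33.6. How far handling contributed to any of these lists was not tested.

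Inside the 8 named cell classes that both segments held, *Egr1* was higher distally in 8 of 8 and past 2-fold in 7. *Fosb* and *Jund* were higher distally in 8 of 8, and *Fos* in 7 of 8, but 2 of the *Fosb* and 7 of the *Jund* differences were no larger than the 0.34 between the whole-limb replicates. An unnamed cluster led by *Entpd2* (3422 proximal and 211 distal cells) went the other way, with *Fosb* at 168 and 147 CPM and *Jund* at 1075 and 969. In another unnamed cluster (298 and 294 cells) both genes were higher distally. *Egr1* was higher distally in both clusters. The *Egr1* levels, proximal first, were 44.7 and 242 CPM in fibroblast-like cells, 66.3 and 257 in perichondrial-like cells, 51.5 and 175 in mitotic cells and 34.1 and 105 in tenocyte-like cells. They were 23.1 and 77.6 in chondrocyte-like, 26.6 and 87.8 in dermal fibroblast-like, 60.6 and 139.5 in pericyte-like and 122 and 174 in epithelial-like cells. The distal cells were higher in each class, with the smallest difference in epithelial-like cells, of which the distal library held only 68. Some classes also differed in makeup between the segments. With finer clusters (resolution 2) a dermal fibroblast-like cluster held 1045 proximal and 190 distal cells, and another 33 and 1325. A chondrocyte-like cluster held 1049 and 117 cells, and another 0 and 376.

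*Fos* and *Jun* differed more by class. Perichondrial-like cells held the highest proximal *Fos* level (405 CPM) and 350.4 CPM distally, the 1 class that was not higher there. Fibroblast-like cells stood above the other classes distally, with 635 CPM of *Fos* against 293 proximally. *Jun* ran the other way in these cells, with 1934 CPM proximally and 931 distally. Over the 8 classes *Jun* was higher distally in 6, 3 of them by no more than 0.34, and lower in 2. In the proximal segment 89.3% of fibroblast-like cells (1884 in all) came from 1 cluster that also expressed *Wnt2*, *Ly6a* and *Dpp4*, and in the distal segment 77.1% of 2850 came from another that expressed *Pi16* and *Cd55*, so the segments were compared over different fibroblast-like clusters. The summed members were highest in fibroblast-like cells proximally (5069 CPM) and in epithelial-like (5225) and fibroblast-like cells (4612) distally, and lowest in chondrocyte-like cells in both (1443 and 1772).

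*Dusp1* was lower distally in 7 of 8 classes, 4 of them by no more than that 0.34, and its widest gap was in perichondrial-like cells, at 90.9 CPM proximally and 24.5 distally. *Atf3* was higher distally in 7 of 8 classes, of which 4 differed by 0.34 or less. The exception was fibroblast-like cells (409.6 and 263 CPM), and the epithelial-like cells, with 623 and 1058 CPM, were 942 of the proximal and 68 of the distal cells.

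**Figure D2:**
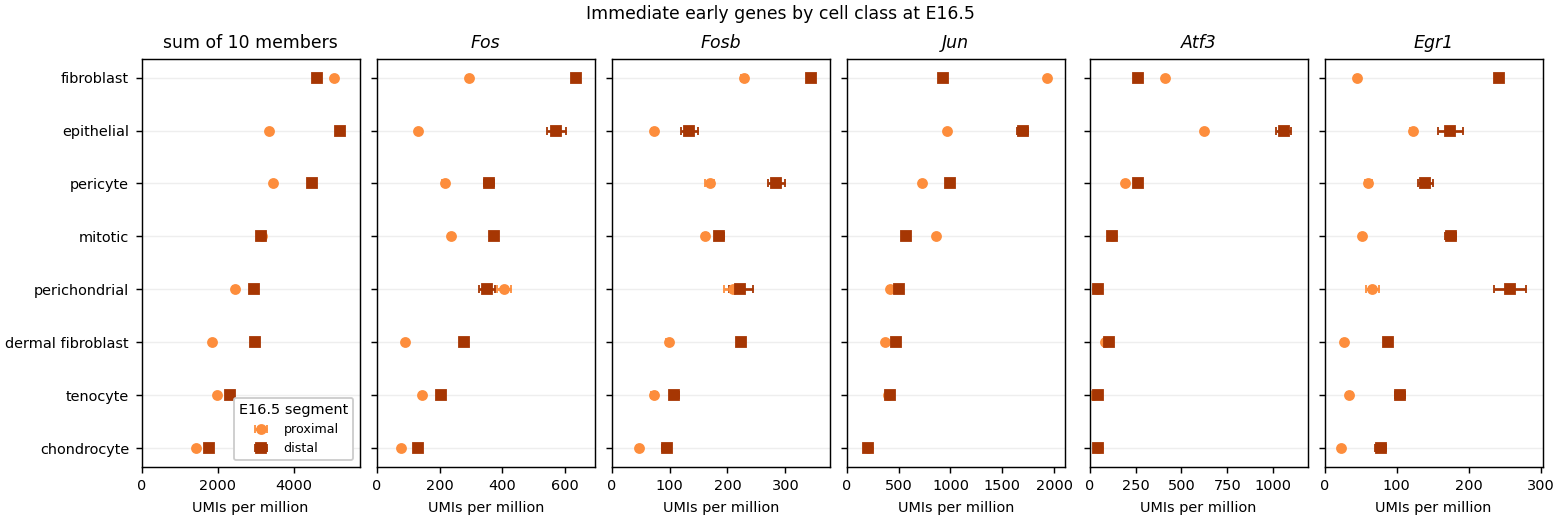
Levels in CPM (horizontal axes, from 0) of the summed members and of *Fos*, *Fosb*, *Jun*, *Atf3* and *Egr1* by cell class, circles for the proximal and squares for the distal E16.5 library, with exact 95% Poisson intervals. *Egr1* and *Fosb* are higher distally in all 8 classes shown and *Jun* in 6 of 8, while *Jun* in fibroblast-like cells is 1934 CPM proximally and 931 distally.

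Classes were also tested inside libraries, each class against the other mesenchymal cells of the same libraries, with library as a block (edgeR's quasi-likelihood test with Benjamini-Hochberg adjustment over all genes). The p-values measure the spread between these few libraries, and the late classes rest on E14.5 and both E16.5 segments. The study's methods describe E16.5 forelimbs as cut into both segments, so these libraries may share embryos and were not treated as paired. Most classes lay in different clusters at different stages: perichondrial-like cells in a cluster with *Sox6* and *Gdf5* at E12.5 and E13.5 and in another with *Runx2* and *Alpl* at E16.5, dermal fibroblast-like cells in one with *Rspo1* at E14.5 and one with *Col7a1* at E16.5, and mitotic and fibrogenic progenitor-like cells in one up to E13.5 and another later. Distal limb mesenchyme-like and early mesenchymal progenitor-like cells lay mostly in other clusters in whole limb than in sorted libraries. Epithelial-like cells, which the study's methods treat as contamination of the sort, pooled a cluster led by *Calm4* and *Krt1* with another led by *Krt14* and *Krt15*. These clusters held 38 and 32 cells at E14.5, 618 and 324 in the proximal and 29 and 39 in the distal segment. The class was tested in 3 libraries. *Atf3* was 2.38 ± 0.27 higher (log2 ± SE, adjusted p = 0.000324), at 100.1 CPM at E14.5 and 623 and 1058 CPM in the proximal and distal segments. *Jun* (1.22 ± 0.20, adjusted p = 0.00218), *Egr1* (1.48 ± 0.37, 0.0139) and *Junb* (0.98 ± 0.28, 0.0272) also passed, each higher in 3 of 3 libraries. These 4 passed in 9 of 10 alternative settings each. *Egr4* passed on 55 UMIs in all, and did not without either E16.5 library. Together these were 5 of 10 members, where 38.3% of 17063 genes passed in either direction. All 5 called members were higher, while 2546 genes passed as higher and 3995 as lower. Without passing, *Jund* was lower in 3 of 3 libraries (-1.24 to -0.39) and *Fosb* in 2 of 3. After thinning both were called lower. *Fosb* was also called lower without E14.5, and *Jund* without the E16.5 proximal library. *Fos* was called higher in DESeq2, after thinning and without either E16.5 library. The median log2 difference was 0.95 for the members and -0.26 for all genes. Epithelial-like cells held summed heat shock levels of 15175 (E14.5), 13549.9 and 10624 CPM, higher than the 8425 and 8377 of E16.5 fibroblast-like cells, and the share of their levels that arose in handling was not tested.

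Tenocyte-like cells held low levels. At E14.5 99.1% of 1059 lay in a cluster led by *Six2*, *Mia* and *Matn4*, the latter pair known as cartilage genes, so that this library holds the name less firmly, and at E16.5 97.3% of 671 proximal and 99.5% of 384 distal ones in another led by *Cilp* and *Tnmd*, a tendon gene found among the leading genes of both. *Atf3* (-1.89 ± 0.35, adjusted p = 0.0323), *Fosb* (-0.89 ± 0.17, 0.0368), *Jun* (-0.64 ± 0.12, 0.0344) and *Ier2* (-0.41 ± 0.08, 0.0374) passed as lower, 4 of 10 members against 9.21% of 16614 genes. All 10 members were lower in 3 of 3 libraries, including *Egr1*, which has known tendon targets and did not pass. *Egr4* rested on 9 UMIs in these cells, and the smallest differences of *Jund* and *Dusp1* were -0.12 and -0.15. Over all genes 507 passed as higher and 1023 as lower, and the share of genes lower in 3 of 3 libraries was not taken. The calls rested on both E16.5 libraries: 0 members passed without the proximal and 0 without the distal one, and 7 passed without E14.5, against 21.6% of 16561 genes. *Fosb* and *Atf3* did not pass with finer clusters (resolution 2), *Fosb*, *Jun* and *Ier2* did not in cells picked by at least 3 class markers, and *Ier2* did not after thinning. Perichondrial-like cells, next to cartilage, had low *Atf3* (-1.35 ± 0.25, adjusted p = 0.0331, lower in 4 of 4 libraries), 1 of 10 members against 4.82% of 15385 genes, which did not pass without E12.5 or without either E16.5 library. Their *Fos* was 1021 CPM at E12.5 and 539 at E13.5, but the test gave 0.74 with adjusted p = 0.134. DESeq2 called *Fos* and *Egr1* higher and *Jund* lower. *Fos* was also called higher without E16.5 distal, and *Egr1* without E13.5. *Jun* at resolution 2 and *Jund* in cells with at least 3 class markers were called lower.

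Among the classes of early limbs, *Ier2* fell by 0.34 ± 0.06 on the log2 scale in early mesenchymal progenitor-like cells (adjusted p = 0.00937, lower in 5 of 5 libraries). In cells picked by at least 3 class markers instead, *Ier2* turned to 0.78 higher (adjusted p = 0.0341), and *Fos* and *Junb* were also called higher, among 36 genes called in all. With clusters at resolution 2 *Fosb* and *Junb* were called lower, so the direction of *Junb* depended on how the class was defined. *Egr4* was 0.56 higher (adjusted p = 0.0322). These 2 of 10 stood against 12.8% of 14230 genes. *Egr4* did not pass without E11.5, E12.5 or either whole-limb library, nor under either of these class definitions. Mitotic cells, in all 8 libraries, had *Fos* 0.31 ± 0.09 higher (adjusted p = 0.0374, 7 of 8 libraries) and *Egr1* 0.35 ± 0.11 higher (0.0348, 6 of 8). This was 2 of 10 against 22.3% of 15805 genes in either direction, a share close to the background, with 1178 genes higher and 2346 lower. In whole limb the class held only 202 and 176 cells, while 3841 and 3949 cells there had at least 3 mitotic markers. The cells it was set against thus also held many of these. *Fos* and *Egr1* passed in 4 and 6 of 15 alternative settings, and with cells picked by at least 3 class markers they stood at -0.08 and -0.01 (adjusted p = 0.569 and 0.950). Dermal fibroblast-like cells (10.4% of 16822 genes) and fibrogenic progenitor-like cells (4.53% of 15705 genes) had 1 call each, both *Egr4*, on 132 and 35 UMIs. *Egr4* was higher in the former (2.62 ± 0.45) and lower in the latter (-1.77 ± 0.33). The call was lost without either E16.5 library in the former and without any 1 library in the latter. In dermal fibroblast-like cells some settings called other members lower. These were *Fos* and *Fosb* in DESeq2, after thinning and at resolution 2, and *Fos* with no filter on low counts. *Fosb* and *Jund* were called lower in cells with at least 3 class markers, and *Fos*, *Jun*, *Egr1* and *Atf3* without E14.5. In distal limb mesenchyme-like cells 0 of 10 members and 2.78% of 15415 genes passed in edgeR. DESeq2 also called 0 members there. In edgeR 4 members (*Jun*, *Egr1*, *Ier2* and *Dusp1*), all lower, had an unadjusted p under 0.05, as did 2042 of the 15415 genes in either direction.

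The E11.5 limb gave the only comparison with a replicated arm, sorted tdTomato+ against whole-limb mesenchymal cells, with 1 residual degree of freedom and the lone sorted library assumed to vary like whole limb. The spread between sorted libraries was not measured, so the p-values compare these 3 libraries and do not cover it. *Jun* was 1.42 ± 0.10 higher (log2 ± SE) in sorted cells, at 587 CPM against 218 and 169.6 (adjusted p = 2.62e-41). *Egr1* was 0.81 ± 0.09 higher, at 215 CPM against 104 and 114 (1.45e-16). *Fosb* (28.5 against 15.8 and 18.1 CPM), *Ier2* (773 against 508 and 481) and *Dusp1* (95.5 against 65.4 and 65.2) were also higher, by 0.57 ± 0.13, 0.47 ± 0.11 and 0.37 ± 0.09, with adjusted p of 2.36e-05, 0.000161 and 0.000283. *Junb* differed by -0.45 ± 0.10, at 195 against 242 and 229.7 CPM (5.74e-05), and *Atf3* by -0.29 ± 0.11 (0.0170). *Fos* (0.10, adjusted p = 0.420), *Jund* (0.19, 0.170) and *Egr4* (-0.12, 0.456) did not pass. So 5 members passed as higher and 2 as lower in these libraries, 7 of 10 where 53.0% of 15150 genes passed, and the share of members called was not far from that of all genes. *Jun* and *Ier2* passed in 10 of 10 alternative settings, with a highest adjusted p of 0.0171 and 0.0331, and *Atf3* in 6 of 10. *Junb* did not pass in cells with at least 3 mitotic markers (-0.19, adjusted p = 0.119), *Fosb* without the filter on low counts (0.56, 0.0613) or in progenitor-like cells (0.34, 0.0862), and *Dusp1* after thinning (0.17, 0.156).

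These E11.5 populations differed in makeup, and some member differences had another size or sign in subsets of the cells. The part of makeup in these differences was not tested. Cells with at least 3 of 20 mitotic markers were 45.4% of the sorted library and 70.3% and 69.5% of whole limb. Among cells with at least 3 markers *Egr1* was 255 CPM in sorted and 93.0 and 106 in whole limb, and among cells with fewer it was 169.5 against 140.0 and 140.2. Among early mesenchymal progenitor-like cells *Egr1* stood at 170.4 CPM against 169 and 180.3, *Fos* at 303 against 393 and 393, and *Jun* at 540.1 against 275 and 230.2. *Jun* thus kept its excess in progenitor-like cells, *Egr1* did not, and *Fos* turned lower (-0.50 on the log2 scale). *Fos* stood at -0.27 in cells with fewer than 3 mitotic markers but at 0.30 in cells with at least 3, where *Egr4* stood at -0.39. By class, *Fos* was lower in sorted cells in both the progenitor-like and the mitotic class. Its log2(CPM + 1) differences were -0.53 to -0.38 against whole 1 and -0.46 to -0.38 against whole 2. Those of *Egr1* were 0.01 to 0.26 and -0.08 to 0.38. The mitotic class held 202 and 176 whole-limb cells. *Atf3* turned 0.41 higher in progenitor-like cells (44.5 CPM against 35.7 and 26.2). It stood at 0.10 in cells with fewer than 3 mitotic markers and at -0.34 in cells with at least 3. *Dusp1* stood at -0.07 in progenitor-like cells. Most progenitor-like cells of the sorted library lay in a cluster with *Aldh1a2* and *Dll3*, those of whole limb in another with *Meis2* and *Gata2*. The 3 subsets, progenitor-like cells and cells split by mitotic markers, were chosen after the data were seen.

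**Figure D3:**
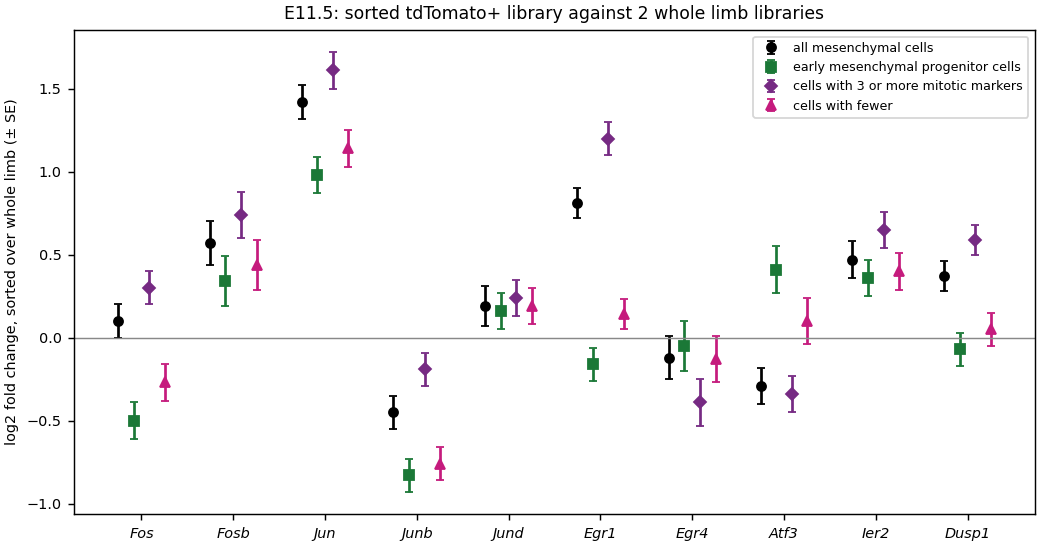
Log2 difference of each member between the sorted tdTomato+ E11.5 library and the 2 whole-limb libraries, with bars of 1 SE, in all mesenchymal cells and in 3 subsets of them. *Jun* lies above 0 in each set of cells (1.42 in all mesenchymal cells, 0.98 in early mesenchymal progenitor-like cells), and *Egr1* lies at 0.81 in all and at -0.16 in progenitor-like cells.

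Related genes at E11.5 were called in both directions in the same test, to be read against the 53.0% of all genes called there. Of 37 other immediate early and delayed early genes 18 were higher and 4 lower (median log2 0.27), a share near that of all genes, led in level by *Btg1*, an antiproliferative gene (0.86 ± 0.11, adjusted p = 1.25e-13). Of 14 MAP kinase phosphatases and feedback genes 5 were higher and 6 lower, and *Spry2*, a feedback inhibitor of receptor tyrosine kinases, was 1.89 ± 0.09 higher (adjusted p = 1.34e-89). Of 13 AP-1 and EGR relatives 4 were higher and 7 lower, among them *Nab2* (-0.44, adjusted p = 3.57e-05), and of 15 SRF and MAPK regulators 4 were higher and 3 lower, also near it. Of 14 heat shock genes 6 were higher and 5 lower, with *Hsp90aa1* at -0.59 and *Hsp90ab1* at -0.65 (adjusted p = 7.42e-05 and 0.000151). Of the 2 metallothioneins 0 were called.

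Cell cycle and RNA quality were tested within libraries. Cells with at least 3 mitotic markers had *Ier2* 0.26 ± 0.06 higher on the log2 scale than the other cells (edgeR with library as a block, adjusted p = 0.00947), with differences of 0.06 to 0.49, higher in 8 of 8 libraries. It was the only one of 10 members that passed, where 38.8% of 16397 genes did in either direction. On the list of other immediate early and delayed early genes 11 of 37 fell and 0 rose. Cells above the median mitochondrial share of their library had *Egr1* 0.34 ± 0.07 higher than cells below it (adjusted p = 0.0147), by 0.11 to 0.86 and in 8 of 8 libraries. This was 1 of 10 members against 11.1% of 16205 genes. *Fosb* was higher in 8 of 8 libraries and *Fos* in 7 of 8 without passing (0.17, adjusted p = 0.223 and 0.24, 0.125), and *Atf3* was lower in 7 of 8 (-0.23, 0.0603). Of 14 heat shock genes 6 fell and 0 rose. The E16.5 distal library, whose *Egr1* level was above the proximal one, had a median mitochondrial share of 2.22% and the proximal one of 1.96%, and the part of that in the *Egr1* difference was not tested.

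Single cells were compared after thinning to 3000 UMIs. The sum of the 10 members had a median of 5 to 8 UMIs per cell in every library, and 0.758% to 3.16% of cells held none. The libraries differed in their upper tail. The 90th percentile was 11 to 16 UMIs up to E14.5 and in whole limb, and 19 and 23 in the E16.5 proximal and distal libraries. The variance was 9.14 and 11.5 times the mean in these libraries and 2.58 to 4.24 times in the others. Cells with at least 60 UMIs, a threshold set after the data were seen, numbered 35 of 11109 in proximal limb (0.315%, exact binomial interval 0.220 to 0.438) and 65 of 8447 in distal limb (0.770%, 0.594 to 0.980), and 0 or 1 in each other library. Of these 14 and 41 were fibroblast-like, 0.743% and 1.44% of that class in the proximal and distal segments. Epithelial-like cells held 10 (1.06%) and 3 (4.41%) of them, and perichondrial-like cells 3 (1.44%) and 1 (0.735%). Over all cells with at least 60 UMIs the median mitochondrial share was 1.97% proximally and 2.56% distally. In each segment 3 of these cells were among the top 5% of doublet scores of their library. The highest count of a single gene in a cell was 140 *Fos* UMIs, in distal limb.

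**Figure D4:**
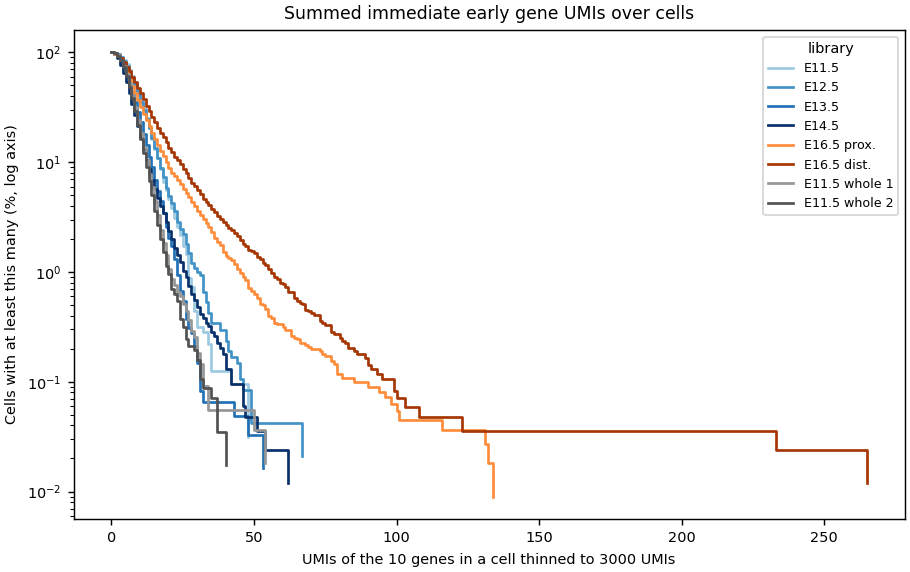
Share of the cells of each library (percent, log axis) with at least the number of summed member UMIs on the horizontal axis, each cell thinned to 3000 UMIs. Medians lie between 5 and 8 UMIs everywhere, and the upper tail of the E16.5 libraries reaches 134 UMIs proximally and 265 distally.

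The members varied together over cells to different degrees. Over the thinned cells of each library, *Fos* correlated with *Egr1* at a median Pearson r of 0.30 over 8 libraries (0.09 to 0.53), with *Junb* at 0.26 (0.17 to 0.41), with *Fosb* at 0.24, with *Jun* at 0.23 (0.12 to 0.51) and with *Dusp1* at 0.21. These were 5 of 45 pairs with a median above 0.2, and 22 pairs had a median under 0.1, so coexpression was weak for most pairs in these sparse counts. Cells of a library share depth, handling and cell class makeup, and no p is given. *Egr1* had 1.58 (E13.5) to 5.14 (E16.5 distal) times as many UMIs in cells with a *Fos* UMI as in cells without one, and *Jund* 0.987 to 1.19 times. The summed members correlated with the other immediate early and delayed early genes at r = 0.41 to 0.66, with heat shock genes at -0.18 to 0.28 and with the mitochondrial share at -0.10 to 0.13, over 3165 to 11109 cells of each library.

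**Figure D5:**
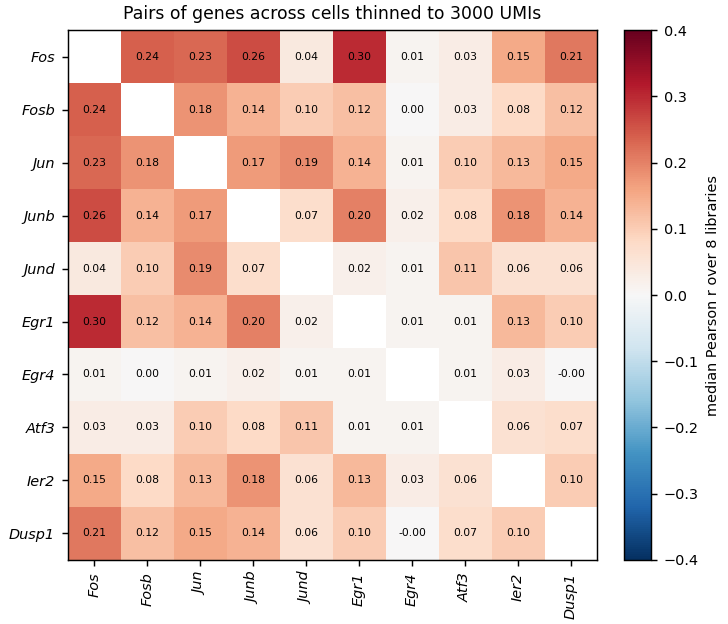
Pearson correlation of the 45 pairs of members over cells thinned to 3000 UMIs, shown in each square as the median over 8 libraries. The pairs of *Fos* with *Egr1* (0.30) and *Junb* (0.26) are the highest, and the pairs of *Egr4* lie at 0.03 or below.

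Outside the 10 members, the genes most like their sum were *Btg2*, an antiproliferative gene (r = 0.81), *Csrnp1* (0.81), *Ier3* (0.80), *Zfp36*, which destabilises mRNAs (0.78), and *Mknk2*, a kinase downstream of ERK (0.74). The correlation ran over 48 sums of a class in a library, of log2(CPM + 1) centred within each of 8 libraries, among 8445 genes. The sums of a library share its depth and handling. The first 4 are also on the list of other immediate early and delayed early genes. *Btg2* stood at 109.6, 94.5, 29.4, 29.2, 101 and 163 CPM in the 6 sorted libraries, with low values at E13.5 and E14.5 as for *Junb*. *Ier3* stood at 28.6, 23.6, 32.1, 63.6, 107 and 155 CPM in the same order and was highest in the E16.5 libraries, as was *Fosb*.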

How the data were processed

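Single-cell 3′ libraries were aligned by the authors to a modified mm10 genome with Cell Ranger, and raw UMI counts per gene and barcode were deposited. The file headers name version 3.0.2, and 6.0.1 for E16.5 distal, and none for whole limb. The study's reporting summary names a version that differs from both. The v2 kit was used up to E13.5 and v3 later. Median depth was 6788.0 to 18473.0 UMIs per kept cell. The 10 genes, the other gene lists, classes and comparisons were chosen with earlier results of these data known. All members were named, with up to 3 genes of highest mean CPM from each list and the 5 genes most like the summed members.

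Cells were clustered (scanpy 1.11.5, Python 3.11.15, 2000 variable genes, 50 components, 25 neighbours, Leiden resolution 1) without the members and lists, except mitotic markers. Of 28 clusters, 22 were named from fixed markers of 17 classes. Clusters led by muscle-fibre genes were left unnamed, a rule set after the data were seen. The top 5% of doublet scores were removed only as an alternative. UMIs were summed per library and cell set and tested with edgeR 4.0.16 (quasi-likelihood, TMM, filterByExpr, Benjamini-Hochberg over all genes at 0.05, R 4.3.3), with library as a block within libraries. DESeq2 1.42.0 was an alternative. Nothing in the labels says whether the whole-limb replicates came from separate embryos, so p-values measure only the spread between these samples. Library steps had no test. Their folds are ratios of CPM, while log2 differences and the 2-fold limit were taken on CPM + 1, among genes at 10 CPM or more. On simulated data the E11.5 test recovered 74.7% of 99 genes changed by 1 log2 unit and 91.8% of 98 changed by 2 among 14884, and the tenocyte-like test 55.7% of 97 changed by 1 among 16328.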

Additional observations from a re-analysis of the deposited data

Results flagged for a closer look

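In 3 of 10 members the difference between cells with at least 3 mitotic markers and the other cells had one sign in every E11.5 library and the opposite sign in both E16.5 libraries. The share of all genes that meet this rule was not taken. *Atf3* was 0.06 to 0.58 higher in the mitotic cells at E11.5 and -0.50 to -0.38 at E16.5, and the medians differed by 0.80 on the log2 scale. *Jund* lay between 0.01 and 0.08 at E11.5, close to no difference, and between -0.35 and -0.16 at E16.5, a difference of 0.29. *Egr4* lay between -0.82 and -0.43 at E11.5 and between 0.11 and 0.52 at E16.5, a difference of -1.0, and its E16.5 values rest on 123 proximal and 74 distal UMIs. These differences between stages were not tested, and kit, enzyme and stage cannot be told apart in them.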

How the results depend on the processing

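Depth limits *Egr4* after E12.5, with 12 to 123 UMIs in each library, and no single sorted library has a replicate. TMM scaling changed the summed members' step to 0.03 at E14.5 (-0.19 in the main setting), 0.88 (0.63) from there to the E16.5 proximal library and 0.10 (0.29) between the E16.5 segments (log2), CPM without mitochondrial and ribosomal protein genes gave -0.12 at E14.5, and thinning gave -0.01 at E12.5 (-0.11). Of the values of members over all alternatives, 501 were counted as unchanged, 75 lost the call, 53 moved and 7 reversed. Library steps have no call, and unchanged there meant a shift below a limit set from that gene's difference between the whole-limb replicates. Only steps past 2-fold could count as reversed. Sign changes at smaller steps were thus not counted, such as *Junb* from E11.5 to E12.5 (3 of 7 settings) and *Egr4* and *Atf3* between the E16.5 segments (2 of 7 each). No paired analysis was possible because the sorted library carries no replicate number in the E11.5 comparison. The blocked tests were also fitted with no replicate block. In the E11.5 test 8035 genes passed, 4845 in DESeq2, 4634 with no filter and 5134 in progenitor-like cells, where *Egr1* (-0.16), *Atf3* (0.41) and *Dusp1* (-0.07) reversed, as did *Atf3* (0.10) in cells with fewer than 3 mitotic markers. These cell subsets were chosen after the data were seen. With no replicate block, genes and members called were 428 and 0 for mitotic markers, 0 and 0 for mitochondrial share, 259 and 0 in dermal fibroblast-like, 0 genes in distal limb mesenchyme-like, 188 and 0 in early progenitor-like, 1 member in epithelial-like, 145 and 0 in fibrogenic progenitor-like, 169 and 0 in mitotic, 57 and 0 in perichondrial-like and 181 and 0 in tenocyte-like cells. DESeq2 called 2 members for mitochondrial share, 3143 genes and 3 members in dermal fibroblast-like, 1072 genes in fibrogenic progenitor-like, 1509 and 4 in perichondrial-like and 2636 genes in tenocyte-like cells. No filter gave 2 members for mitochondrial share, 2 in dermal fibroblast-like and 0 in mitotic cells, and 1220 genes in fibrogenic progenitor-like cells. Thinning gave 2 members for mitotic markers, 3 for mitochondrial share, 3 in dermal fibroblast-like, 0 in fibrogenic progenitor-like and 1 in mitotic cells, and 1206 genes in early progenitor-like and 902 in tenocyte-like cells. Clustering at resolution 2 gave 3 members in dermal fibroblast-like, 0 in fibrogenic progenitor-like, 2 in perichondrial-like and 2 in tenocyte-like cells. Cells with at least 3 markers of the class gave 2886 genes and 3 members in dermal fibroblast-like, 260 genes in distal limb mesenchyme-like, 36 in early progenitor-like (*Ier2* reversed to 0.78), 0 members in fibrogenic progenitor-like, 6732 and 1 in mitotic (*Fos* -0.08 and *Egr1* -0.01, both reversed), 1574 and 2 in perichondrial-like and 2 members in tenocyte-like cells. Leaving out 1 library at a time gave 5140 to 6259 genes and 1 member for mitotic markers, 726 to 2196 and 1 to 2 for mitochondrial share, 401 to 3659 and 0 to 5 in dermal fibroblast-like, 244 to 638 and 0 to 1 in distal limb mesenchyme-like, 726 to 2174 and 1 to 2 in early progenitor-like, 4177 to 9038 and 5 to 6 in epithelial-like, 254 to 559 and 0 in fibrogenic progenitor-like, 2625 to 4003 and 0 to 3 in mitotic, 263 to 421 and 0 to 2 in perichondrial-like and 280 to 3580 and 0 to 7 in tenocyte-like cells. The cause of these changes was not tested.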

Other observations

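Some cells outside the named classes held members at levels of their own. A cluster of 3422 E16.5 proximal cells led by *Entpd2* and muscle-fibre genes had 2583 CPM of summed members. Its *Egr1* was 34.1 CPM and its *Fosb* 168 CPM, the former below and the latter above the level of the whole library. A cluster of 1911 E16.5 distal cells led by *Fam81a* had 3672 CPM of summed members, close to the 3642 of its library, and the highest *Jund* level of any unnamed cluster, 1611 CPM.

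Barcodes that were left out also carried the members. At E14.5 *Fosb* stood at 264 CPM in 700 barcodes under 3000 UMIs and at 265 in 108 barcodes over 10% mitochondrial UMIs, against 60.2 and 114 in kept cells at or below and above the median mitochondrial share. *Egr1* stood at 172 and 173 CPM in the excluded barcodes of E14.5, against 23.8 and 39.8. The E16.5 distal library went the other way in its 80 barcodes over 10% mitochondrial UMIs, with *Fosb* at 151 CPM against 261 and 297 in kept cells, *Egr1* at 107 against 132 and 199.8 and summed members at 2295 CPM of non-mitochondrial UMIs against 3703 and 3751. Barcodes under 3000 UMIs lay above both kept sets for *Egr1* in 8 of 8 libraries and for *Fosb* in 7 of 8. Their summed members per non-mitochondrial UMI lay above both kept sets in 3 of 8 libraries and below both in 2, while over all UMIs, mitochondrial ones included, they lay above in 2 and below in 5. Summed heat shock genes were lower in the excluded barcodes of E14.5, at 6539 and 7614 CPM of non-mitochondrial UMIs against 9964 and 9558. These differences were not tested.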
